A study of Mus musculus with 6 samples.

Results

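Fibroblast growth factors (FGFs) and their receptors were measured as RNA in thymic epithelial cells (TECs), in 9 genes of the 30176 that could be tested. The 9 are the receptors *Fgfr1*, *Fgfr2*, *Fgfr3* and *Fgfr4* and the ligands *Fgf1*, *Fgf2*, *Fgf7*, *Fgf9* and *Fgf10*, which are the receptors and the ligands known in the thymus. A gene was read from probe sets annotated with its symbol alone, and each of the 9 had 1 such probe set, so no choice by mean level was needed. CD45-negative EpCAM+ cells were sorted from 3 mice labelled KO, here Δ*socs3*, of genotype socs3fl/fl act cre ER, and from 3 labelled WT, of genotype socs3fl/fl. All mice carried floxed *Socs3* alleles and received tamoxifen (Tm), and cells were taken 7 days after treatment. The Cre fused to a mutated estrogen receptor domain is driven by the β-actin promoter and is therefore not restricted to TECs, and no Cre-bearing control with intact *Socs3* was on the arrays. The ages of the mice were not given in the sources used here. The question put to these arrays was how the TEC transcriptome differs when *Socs3* is deleted.

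FGFs bind receptor tyrosine kinases on the cell surface together with heparan sulfate chains. The activated receptor phosphorylates the adaptor FRS2, which recruits GRB2 and GAB1 and switches on the MAP kinase and the PI3-kinase cascades, and Sprouty proteins and the phosphatase DUSP6 dampen the signal in return. In the thymus, FGF7 (keratinocyte growth factor) and FGF10 come mainly from mesenchyme and bind the epithelial splice form of FGFR2, through which they drive the growth of TECs. The array gives 1 value per transcript cluster, so the epithelial and the mesenchymal splice forms of FGFR2 could not be told apart.

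*Socs3*, the targeted gene, had log2 signals of 8.54, 8.14 and 8.38 on the arrays labelled Δ*socs3* and of 7.995, 8.26 and 7.88 on those labelled WT. The groups overlapped, and the gap of 0.32 (standard error, SE, 0.16, adjusted p = 0.284 from limma) did not pass and had the sign opposite to a deletion. The study, by contrast, reports *Socs3* mRNA as significantly reduced in Δ*socs3* TECs. Whether the probes lie in the deleted part is not known, and whether the deposited labels were exchanged was not tested. The groups are therefore named below as labelled. *Epcam*, the surface protein used for the sort, lay between 15.28 and 15.58 on all 6 arrays and the keratin gene *Krt8* between 16.75 and 17.08. Replicate 2 of the arrays labelled Δ*socs3* differed from the rest. Its Pearson correlations across genes were 0.962 to 0.98 with the other arrays, which correlated at 0.98 to 0.996 with each other, and its positive controls averaged 3.07 log2 units above its negative controls against 3.60 to 3.91 on the others. Calls and counts that change when it is left out are given beside the results below.

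Of the 9 genes, limma called *Fgfr2* and *Fgf9* lower on arrays labelled Δ*socs3* and called none higher, with 7 not past the adjusted p of 0.05. Over all genes tested, 1.7% were called, with 1.18% lower and 0.517% higher (356 and 156 genes). The balance over all genes moved with the scaling, to 355 lower and 367 higher without a shift of the array medians and to 1052 lower and 1146 higher after quantile normalization, while the calls of the 9 genes stayed the same in both. At an unadjusted p under 0.05 from limma, 3 of the 9 were lower and none was higher, against 17.9% and 5.86% of all genes. The methods' t-test gave 5 lower and none higher unadjusted, against 14.2% and 5.12% of all genes, and none in either direction after the Benjamini-Hochberg correction. The study lists *Fgfr2* and *Fgf9* among the genes it selected on these samples, with the direction opposite to the one the deposited labels give here, and the same holds for *Aire* and *Osmr*. The mean signal would have served to choose among probe sets, but the family itself was taken up with results of these arrays known, so the calls are a description and no independent evidence, and to which genotype the lower signal belongs is not settled by these files.

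**Figure D1:**
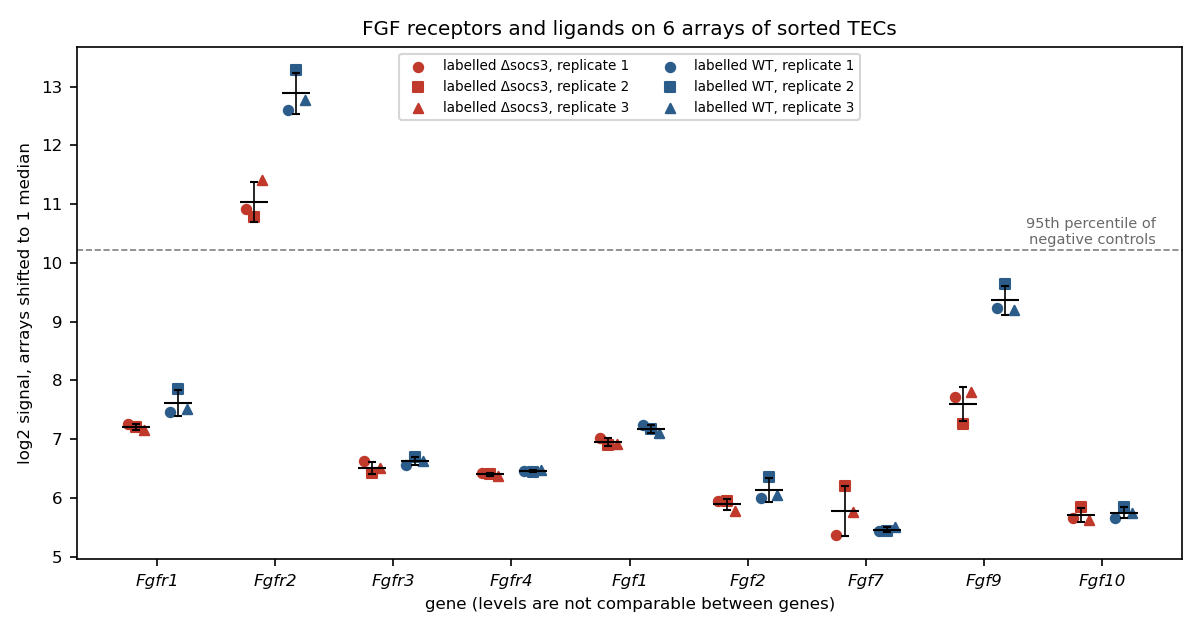
Log2 signal (y axis) of the 9 genes (x axis) on the 3 arrays labelled Δ*socs3* (red) and the 3 labelled WT (blue), with symbols for the replicates and black marks for the mean ± SD. *Fgfr2* at 10.78 to 13.28 lies above the dashed line at 10.22, the 95th percentile of the negative controls, and *Fgfr2* and *Fgf9* show the widest gaps between groups.

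The sequences before an annotated transcription start are shown for *Fgfr2* and *Fgf9*, the 2 genes that passed. Whether TECs use these starts was not measured. They are the 250 bases upstream of a RefSeq start in GRCm38.p6, written 5′ to 3′ on the gene's strand, with CG dinucleotides in capitals. The *Fgfr2* window is chr7:130266809-130267058 on the minus strand and the *Fgf9* window chr14:58072436-58072685 on the plus strand, inside the annotated span of the gene.
Fgfr2: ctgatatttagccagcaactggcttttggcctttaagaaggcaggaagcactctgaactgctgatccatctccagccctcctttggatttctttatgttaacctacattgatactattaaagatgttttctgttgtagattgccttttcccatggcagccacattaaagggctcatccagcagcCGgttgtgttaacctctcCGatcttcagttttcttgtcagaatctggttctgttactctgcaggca
Fgf9: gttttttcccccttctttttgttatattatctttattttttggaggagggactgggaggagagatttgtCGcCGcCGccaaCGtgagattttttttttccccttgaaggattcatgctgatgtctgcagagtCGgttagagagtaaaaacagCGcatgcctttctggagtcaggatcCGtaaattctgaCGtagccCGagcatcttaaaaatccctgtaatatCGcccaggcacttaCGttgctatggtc
The *Fgfr2* window holds 2 CG dinucleotides at 44% G and C, and the *Fgf9* window 11 at 44.8%, while the median of all 32851 windows of this length is 6 at 52.4%. Motifs were searched on both strands. The STAT motif TTCNNNGAA was in neither window and is in 7.02% of all windows, the AP-1 motif TGANTCA was in neither and is in 6.75%, and the core motif GACGC of FOXN1, the transcription factor of TEC development, was in neither and is in 22.6%. Of the 7 genes of the 9 with a window, *Fgf2* and *Fgfr3* hold GACGC and none holds the other motifs. *Fgf1* and *Fgfr1* were not in the table of windows.

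*Fgfr2* encodes the receptor for FGF7 and FGF10 on epithelia. Its log2 signal was 10.92, 10.78 and 11.42 on the arrays labelled Δ*socs3* and 12.60, 13.28 and 12.78 on those labelled WT. The groups did not overlap, and the highest value labelled Δ*socs3* lay more than a log2 unit below the lowest labelled WT. The means were 11.04 ± 0.34 and 12.89 ± 0.35 (SD, n = 3), a log2 difference of -1.85 (SE 0.24, adjusted p = 0.0301 from limma), or 3.61-fold lower, with a 95% interval of -2.41 to -1.29. With replicate 2 labelled Δ*socs3* left out, the difference was -1.72 (adjusted p = 0.0087). Leaving out any 1 of the other 5 arrays ended the call, with adjusted p of 0.0615 to 0.118 and differences of -2.05 to -1.66. Those 5 fits called at most 4 genes of the whole table in a direction. *Fgfr2* was the single gene of the 9 with a mean above the 95th percentile of the negative controls in both groups, and its mean exceeded that of 98.05% of them. In a bulk sample, fewer cells that express a gene and less RNA per cell cannot be told apart.

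*Fgf9* encodes a secreted FGF that signals mainly through the mesenchymal splice forms of the receptors. It measured 7.72, 7.26 and 7.80 on arrays labelled Δ*socs3* and 9.24, 9.64 and 9.20 on arrays labelled WT, again with no overlap. The means of 7.59 ± 0.29 and 9.36 ± 0.24 (SD, n = 3) differed by -1.78 on the log2 scale (SE 0.20, adjusted p = 0.0256 from limma, 95% interval -2.24 to -1.32). Neither mean reached the 95th percentile that *Fgfr2* exceeded, and the *Fgf9* mean over all arrays was above 82.23% of the negative controls. With replicate 2 labelled Δ*socs3* left out, the difference was -1.61 (adjusted p = 0.00375), and without any 1 of the other 5 it no longer passed (adjusted p = 0.0624 to 0.114). Over the 6 arrays, which share their 2 groups and their scaling, *Fgf9* and *Fgfr2* correlated at a Pearson r of 0.987, as a description.

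The other 3 receptors had low signals and did not pass. *Fgfr1*, whose product binds FGF2 and is abundant in mesenchyme, was at 7.26, 7.20 and 7.16 on arrays labelled Δ*socs3* and at 7.46, 7.86 and 7.52 on arrays labelled WT. Its values did not overlap between groups, and the difference of -0.41 (SE 0.14, adjusted p = 0.155, 95% interval -0.74 to -0.07) failed the correction over all genes. *Fgfr3*, a receptor known for its restraint of bone growth, spanned 6.42 to 6.62 and 6.56 to 6.70, with overlap and a difference of -0.11 (adjusted p = 0.613, 95% interval -0.39 to 0.17). *Fgfr4*, the main FGF receptor of hepatocytes, spanned 6.38 to 6.42 and 6.44 to 6.48. Its groups did not overlap, though the difference was -0.06 (adjusted p = 0.767, 95% interval -0.32 to 0.19), and with no shift of medians, which moved the median of all genes from -0.05 to 0.08, *Fgfr3* and *Fgfr4* turned to 0.02 and 0.07. The means of these 3 genes exceeded those of 41.67% to 63.92% of the negative controls.

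*Fgf2*, *Fgf7* and *Fgf10* had mean signals below those of most negative controls, and *Fgf1* exceeded 56.28% of them. *Fgf7* was at 5.36, 6.20 and 5.76 on arrays labelled Δ*socs3* and at 5.44, 5.44 and 5.50 on arrays labelled WT. The groups overlapped, and the highest value was that of the array labelled Δ*socs3* replicate 2, without which the difference fell from 0.31 (adjusted p = 0.413, 95% interval -0.18 to 0.81) to 0.10 (adjusted p = 0.663). *Fgf10* was at 5.66, 5.84 and 5.62 and at 5.66, 5.84 and 5.74, which overlapped nearly in full, with a difference of -0.04 (adjusted p = 0.875, 95% interval -0.33 to 0.25) that turned to 0.10 with no shift of medians. *Fgf7* and *Fgf10* exceeded 25.24% and 27.21% of the negative controls, so neither ligand of the epithelial receptor gave a signal that stood out from background. Of the 11 measured markers of fibroblasts and mesenchyme, the cells that make these ligands, none passed in either direction (limma unadjusted 1 higher and 1 lower, the methods' t-test none, unadjusted or adjusted). With replicate 2 labelled Δ*socs3* left out, *Pdgfrb*, a receptor gene of pericytes and fibroblasts, was called higher at 0.66 (adjusted p = 0.0179), from 0.49 (adjusted p = 0.173). The mean log2 signal of the 11 was 7.66 to 8.08 on arrays labelled Δ*socs3* and 7.81 to 8.26 on arrays labelled WT. The brightest were the collagen gene *Col6a1*, at 11.86 to 13.36, the proteoglycan gene *Dcn*, at 12.14 to 13.02, and *Cd34*, while *Col1a1* lay between 7.18 and 7.74.

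*Fgf1*, a ligand that binds all 4 receptors, was at 7.02, 6.90 and 6.92 on arrays labelled Δ*socs3* and at 7.24, 7.18 and 7.10 on arrays labelled WT, a difference of -0.23 (adjusted p = 0.275, 95% interval -0.50 to 0.04). *Fgf2*, or basic FGF, was at 5.94, 5.94 and 5.78 and at 6.005, 6.36 and 6.04, a difference of -0.25 (adjusted p = 0.338, 95% interval -0.58 to 0.09). In both genes every value labelled Δ*socs3* was below every value labelled WT. In all, 6 of the 9 genes had this pattern (*Fgfr1*, *Fgfr2*, *Fgfr4*, *Fgf1*, *Fgf2* and *Fgf9*), none had the reverse and 3 overlapped. Over all genes the pattern is common, at 26.5% in this direction and 8.17% in the other. The median difference of the 9 genes was -0.23, beside -0.05 over all genes.

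**Figure D2:**
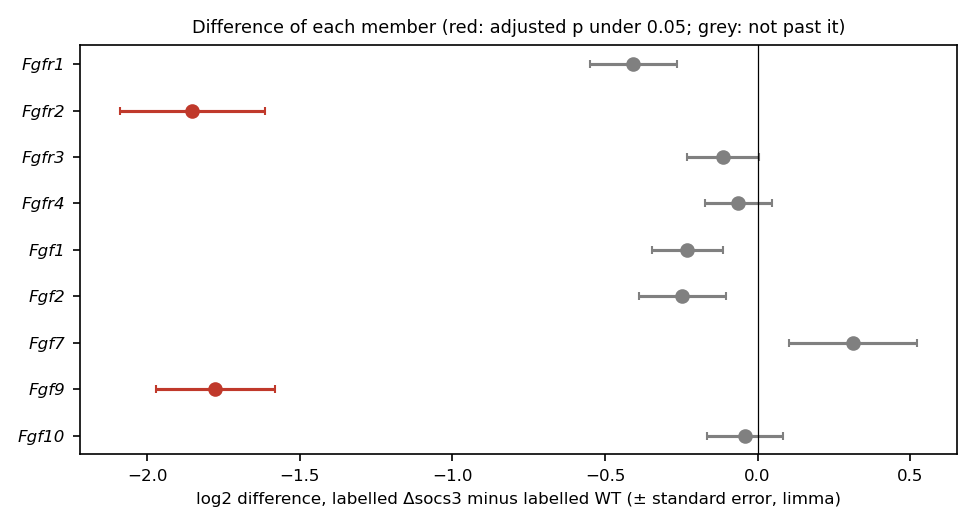
Log2 difference between arrays labelled Δ*socs3* and arrays labelled WT (x axis, ± standard error from limma, 3 arrays a group) for each of the 9 genes (y axis), red where the adjusted p was under 0.05. *Fgfr2* at -1.85 and *Fgf9* at -1.78 stand below the others, which lie between -0.41 and 0.31.

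Around the receptors, 75 genes of 6 lists were measured. Of these, limma called 6 lower on arrays labelled Δ*socs3* and 0 higher, beside 1.18% and 0.517% of all genes, and 69 were not called. Over all 75, 31 were lower and 4 higher at an unadjusted p under 0.05, beside 17.9% and 5.86% of all genes, and these shares of all genes also stand behind the counts of each list below. The methods' t-test gave 15 lower and 4 higher unadjusted and none in either direction adjusted. With replicate 2 labelled Δ*socs3* left out, 12 were lower and 4 higher, beside 6.05% and 5.15% of all genes in that fit, and without any 1 of the other 5 arrays each of the 6 lost its call (adjusted p = 0.0615 to 0.205). The median difference of the 75 was -0.36, beside -0.05 over all genes.

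Among 16 coreceptors and FGF-binding proteins, 3 were lower and none was higher (8 lower and 1 higher unadjusted). Without replicate 2 labelled Δ*socs3*, 4 were lower and 1 was higher. *Flrt2* and *Flrt3* encode transmembrane proteins with leucine-rich repeats that associate with FGF receptors. *Flrt2* was at 8.78, 8.14 and 8.66 on arrays labelled Δ*socs3* and at 10.36, 11.08 and 9.98 on arrays labelled WT, a difference of -1.94 (SE 0.30, adjusted p = 0.0379). *Flrt3* was at 8.09, 7.68 and 8.20 and at 9.46, 9.40 and 9.60, a difference of -1.50 (adjusted p = 0.0259). Neither gene's groups overlapped. *Flrt2* exceeded the 95th percentile of the negative controls on arrays labelled WT alone and *Flrt3* in neither group, so both sizes are uncertain. *Sdc3*, a syndecan that carries heparan sulfate, differed by -1.04 (adjusted p = 0.0482), and turned to an adjusted p of 0.0564 with an intensity trend and robust hyperparameters. The *Sdc3* means, 8.62 and 9.65, did not reach that percentile either.

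Of 11 genes that build or edit heparan sulfate, the sulfatase gene *Sulf1* was called lower, 0 were called higher and 10 did not pass (unadjusted 7 lower and 0 higher). *Sulf1* removes sulfate groups that FGFs need for binding. It was at 11.74, 11.62 and 11.86 on arrays labelled Δ*socs3* and at 13.20, 13.78 and 13.16 on arrays labelled WT, with no overlap and a difference of -1.64 (SE 0.19, adjusted p = 0.0266). The median of the list was -0.64. Without replicate 2 labelled Δ*socs3*, 2 of the list were lower and 0 higher.

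Of 17 measured adaptors and kinases behind the receptors, 2 were lower and none was higher (9 lower and none higher unadjusted), with a median of -0.58. Leaving out replicate 2 labelled Δ*socs3* gave 3 lower and 0 higher. The docking protein gene *Gab1* was at 11.16, 10.62 and 11.22 on arrays labelled Δ*socs3* and at 12.20, 12.84 and 12.22 on arrays labelled WT, a difference of -1.42 (SE 0.24, adjusted p = 0.0442). *Pik3r1*, the regulatory subunit of PI3-kinase, was at 12.82, 12.22 and 12.66 and at 13.52, 13.92 and 13.58, a difference of -1.11 (adjusted p = 0.0478). In both genes the array labelled Δ*socs3* replicate 2 was the lowest of the 6, as in *Fgfr2*, *Fgf9*, *Flrt2*, *Flrt3*, *Sdc3* and *Sulf1*.

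None of 12 feedback and target genes passed in either direction with limma (5 lower and 1 higher unadjusted, 3 and 1 with the methods' t-test unadjusted). *Dusp6*, the MAP kinase phosphatase induced by FGF signals, was at 8.48, 7.42 and 8.74 on arrays labelled Δ*socs3* and at 9.54, 9.76 and 9.90 on arrays labelled WT, a difference of -1.52 (SE 0.33, adjusted p = 0.0678). With replicate 2 labelled Δ*socs3* left out, its difference of -1.12 passed (adjusted p = 0.00683). *Spry1*, a Sprouty gene, differed by -0.56 (adjusted p = 0.0728), from a signal exceeding 56.59% of the negative controls, and passed with that replicate left out (adjusted p = 0.0318) and after quantile normalization (adjusted p = 0.0279). *Dusp4*, another phosphatase gene, ran the other way at 1.15 (adjusted p = 0.0911, 0.00408 with that replicate left out and 0.01 after quantile normalization). The ETS genes *Etv4* and *Etv5*, further targets of FGF signals, differed by -0.02 and -0.06. The list therefore held differences of both signs, from -1.52 to 1.15 with a median of -0.04.

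Of 15 other genes of the FGF family, not all of them ligands of the receptors, none passed with limma (2 higher and 1 lower unadjusted, and as many with the methods' t-test unadjusted). *Fgf21*, which encodes an endocrine FGF made chiefly in liver, was at 12.06, 10.28 and 11.18 on arrays labelled Δ*socs3* and at 9.70, 8.74 and 9.38 on arrays labelled WT. The groups did not overlap, and the difference of 1.91 (SE 0.45, adjusted p = 0.0782) was above that of any other FGF gene listed, and the replicates labelled Δ*socs3* had an SD of 0.89. The mean labelled WT, 9.27, did not reach that background percentile of 10.22, which leaves the size of the gap uncertain. It passed with replicate 2 labelled Δ*socs3* left out, at 2.35 (adjusted p = 0.0105), and after quantile normalization (adjusted p = 0.0169). *Fgf15*, the ileal hormone gene, differed by 0.69 (adjusted p = 0.0623) from signals of 4.57 to 5.50, all within background, and passed with replicate 2 labelled Δ*socs3* left out (adjusted p = 0.00801) and with no shift of medians (adjusted p = 0.0322). Without that replicate, 1 of the 15 was lower and 2 were higher. None of the 4 splicing regulators that set the form of FGFR2 passed (1 lower and none higher unadjusted, none with the methods' t-test unadjusted). *Rbfox2* differed by -0.70 (adjusted p = 0.142) and *Ptbp1* by -0.35 (adjusted p = 0.234), and *Esrp1*, which promotes the epithelial form, by -0.17 (adjusted p = 0.657).

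**Figure D3:**
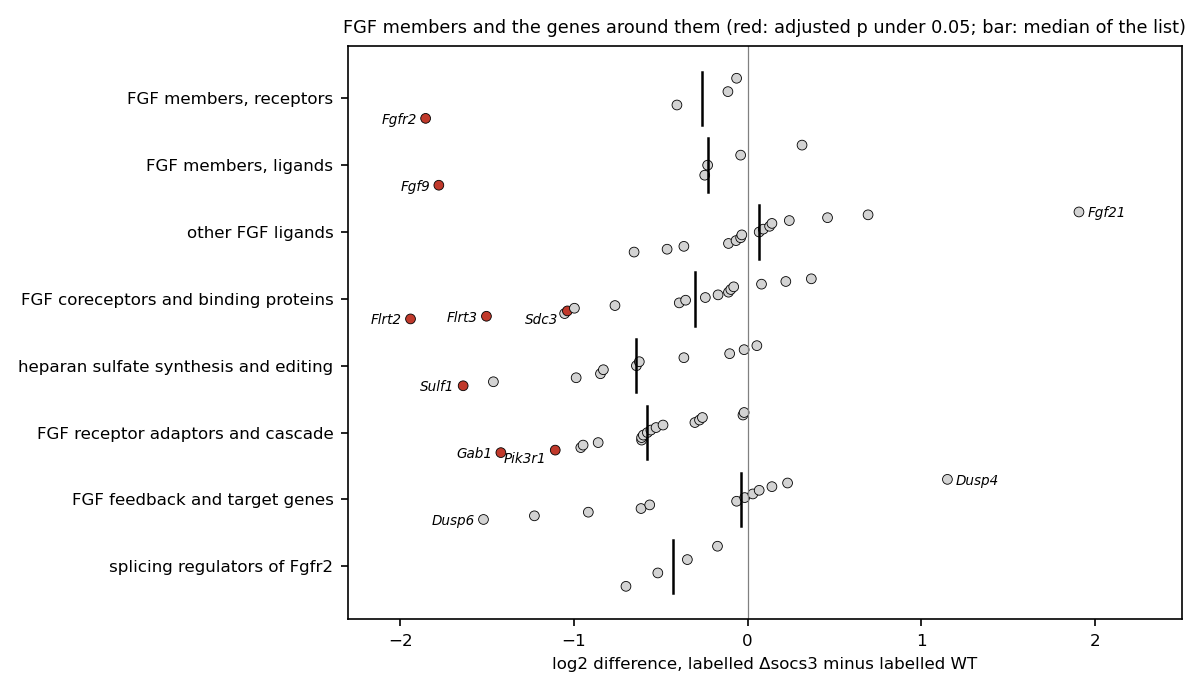
Log2 difference between arrays labelled Δ*socs3* and arrays labelled WT (x axis) for each measured gene of the FGF members and 6 surrounding lists (y axis), red where the adjusted p was under 0.05, with a bar at the median of each list. All 8 red genes lie at negative values, and *Fgf21* at 1.91 is the highest point.

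Markers of cell types were read beside these values. Of 18 markers of TECs, *Aire* of mature medullary cells was called higher at 1.76 (adjusted p = 0.0386) and 17 were not called, among them *Psmb11* of cortical cells at -1.52 (adjusted p = 0.0985). *Psmb11* was at 13.40 to 14.62 on arrays labelled Δ*socs3* and at 15.18 to 16.40 on arrays labelled WT, a gap in the same direction as that of *Fgfr2*. Over all 18, 3 were higher and 9 lower unadjusted, and 4 were higher and 1 lower with replicate 2 labelled Δ*socs3* left out. The 1 lower in that fit was *Krt14*, at -0.57 (adjusted p = 0.0269), from -0.76 (adjusted p = 0.0852). *Psmb11* did not pass in that fit (adjusted p = 0.0797). *Krt5*, which the study used as a marker of medullary cells, differed by -0.40 (adjusted p = 0.17), opposite in sign to *Aire*. The part of these markers in the differences of *Fgfr2* and *Fgf9* was not tested. Of 11 markers of macrophages and dendritic cells, 3 were higher and none was lower, with *Lyz2* at 1.83 (adjusted p = 0.0349), and 6 were higher with replicate 2 labelled Δ*socs3* left out. *Lyz2* alone exceeded the 95th percentile of the negative controls. The other 10 did so in neither group, among them the called *Mrc1* at 1.26 and *C1qb* at 0.69. *Cd68* ran the other way at -0.30 (adjusted p = 0.444 from limma). Leaving out any 1 of the other 5 arrays ended the calls of *Aire* (adjusted p = 0.103 to 0.157) and *Lyz2* (adjusted p = 0.0959 to 0.138). The macrophage and dendritic cell markers had a mean log2 signal of 7.63 to 7.72 against 7.10 to 7.20. None of 11 thymocyte, 7 endothelial and 4 B cell markers passed with limma, with 2 of these 22 higher and none lower unadjusted, and the same numbers with the methods' t-test unadjusted. With replicate 2 labelled Δ*socs3* left out, the thymocyte gene *Dntt* was called higher at 0.90 (adjusted p = 0.0342), from 0.42 (adjusted p = 0.581). Thymocyte markers averaged 7.66 to 8.67 on arrays labelled Δ*socs3* and 7.79 to 8.24 on arrays labelled WT. The brightest were *Cd8b1*, at 9.32 to 11.22, *Cd4*, at 9.54 to 11.22, and *Cd3e*, at 8.22 to 9.76. The mean of *Cd8b1* exceeded the 95th percentile of the negative controls in both groups, and that of *Cd4* on arrays labelled Δ*socs3* alone.

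**Figure D4:**
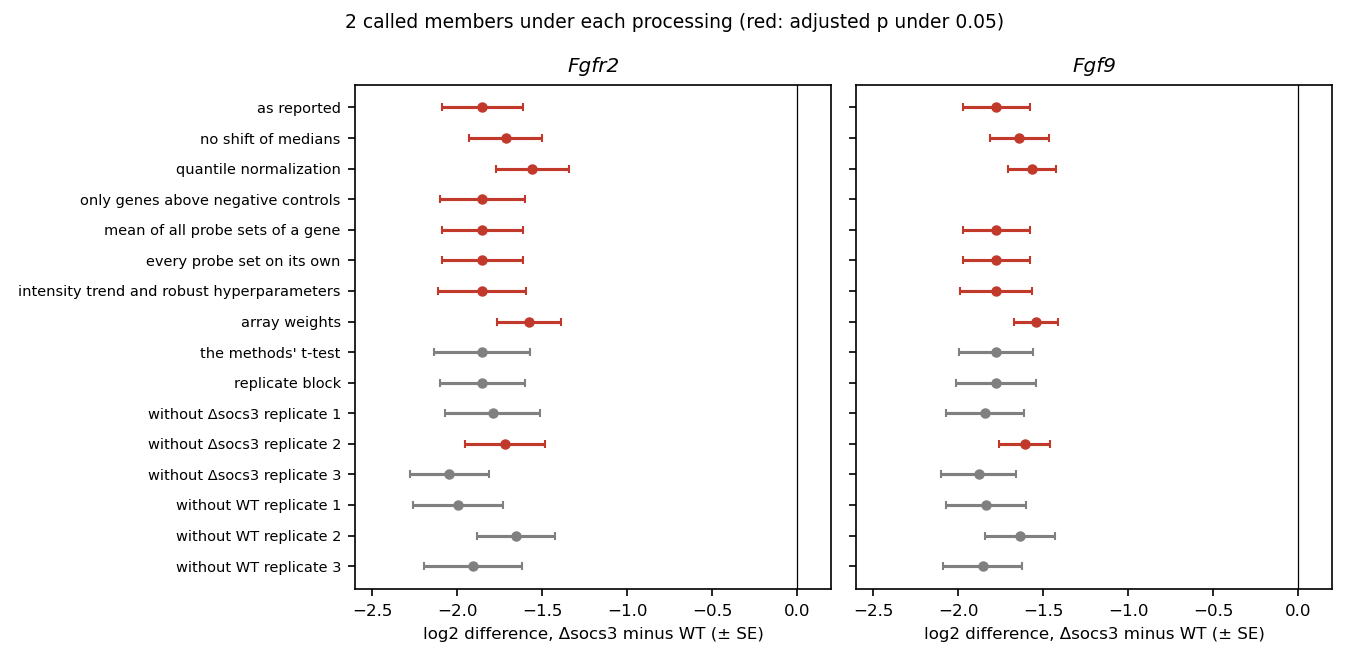
Log2 difference (x axis, ± standard error) of *Fgfr2* and *Fgf9* under the reported processing and each alternative (y axis), red where the adjusted p was under 0.05. Both genes lie between -2.05 and -1.54 in every fit, and the call is lost with the methods' t-test, with the replicate block and without any array other than the one labelled Δ*socs3* replicate 2. *Fgf9* was removed by the filter on dim genes.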

How the data were processed

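Mouse transcriptome arrays were hybridised with RNA of sorted TECs, 1 per mouse (6 arrays). Per the methods, the authors scaled signals with MAS5, took log2 and normalized to medians by array and then by gene. The log2 values the authors deposited (72688 probe sets) run from 2.34 to 19.93. Array medians differ and genes are not centred, so it is unclear which steps these values carry, and its genome build is not given in the sources used here. The platform annotation (2017) gave a single symbol to 30638 transcript clusters, several to 2176 and none to 33142. The last 2 kinds were left out, and the probe set with the highest mean was kept per gene. Each array was shifted to 1 median over genes. The test was limma 3.58.1 (R 4.3.3, with lmFit and eBayes, no trend) on the 3 arrays a group, and p-values were adjusted by Benjamini-Hochberg over 30176 genes with a threshold of 0.05. No filter on dim genes was applied. Background was judged from 5222 negative control probe sets, and the number of arrays limits the precision. The fit was tested on simulated data. Alternatives were no shift, quantile normalization, a filter on dim genes, other summaries of probe sets, array weights, a variance trend with robust hyperparameters, Student's unpaired test, which the methods name for measurements other than the arrays (the methods' t-test), the replicate number as a block and leaving out each array. Upstream sequences are from RefSeq (GRCm38.p6).

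Genes with single values were all 9 members, *Socs3*, and in each list up to 4 called members with the smallest p or otherwise 2. Further ones were up to 3 bright markers each of fibroblasts, macrophages and thymocytes, and the 5 genes most like *Fgfr2* and *Fgf9*. Any further gene was named with its values in view. The members and lists were chosen with earlier results of these data known.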

Additional observations from a re-analysis of the deposited data

How the results depend on the processing

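The difference of *Fgfr2* and of *Fgf9* was negative in every fit that could be made, 15 alternatives for *Fgfr2* and 14 for *Fgf9*, which the filter on dim genes removed. In *Fgfr2* and *Fgf9* together 14 of these fits no longer passed. The count of lower genes among the 9 was 1 with the filter on dim genes (1 of them tested), 0 with the methods' t-test and 0 with the replicate block. Leaving out each array gave 0 to 2. Over all genes, higher calls were 367 with no shift of medians. Higher and lower calls were 1146 and 1052 after quantile normalization, 1813 and 2730 with array weights (an iteration that stopped before it converged), and 3 and 1 with the methods' t-test. The filter on dim genes left 4446 genes, with 120 higher and 414 lower. Leaving out each array gave 0 to 1554 higher and 0 to 1827 lower. Of the genes around the receptors, 1 was higher with no shift, and 2 were higher and 11 lower after quantile normalization. The filter left 23 of them, with 2 higher and 4 lower. In the other fits 3 were higher and 19 lower with array weights, and 0 were lower with the methods' t-test. Leaving out each array gave 0 to 4 higher and 0 to 12 lower. Among the fits that left out an array, the highest of these counts came without the one labelled Δ*socs3* replicate 2, and the cause was not tested.

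With the replicate block, 25 genes were higher and 4 lower, 0 of the genes around the receptors were lower, and *Fgfr2* and *Fgf9* had adjusted p of 0.0784 and 0.0741. Deviations from the group means of same-numbered arrays correlated at 0.07, -0.13 and -0.18 across genes. These values show no pairing by number, but with 3 arrays a group they cannot exclude one. Genes of the 9 that were not called turned sign in 4 fits. With no shift, *Fgfr3* was at 0.023, *Fgfr4* at 0.073 and *Fgf10* at 0.097, and leaving out each array gave *Fgf10* -0.105 to 0.005, above 0 without the one labelled WT replicate 2.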

Other observations

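The genes whose values ran most like those of *Fgfr2* and *Fgf9* over the 6 arrays were sought among the genes with a mean above the 95th percentile of the negative controls, without predicted genes. These correlations describe the arrays, which share their 2 labelled groups and their scaling, and they are dominated by the gap between groups. For *Fgfr2*, 279 of 3220 genes had a Pearson correlation above 0.95. The closest were *Lacc1* (0.999), *Osmr*, the oncostatin M receptor gene (0.997), *Slc46a2* (0.997), the RNA-binding protein gene *Pcbp2* (0.995) and *Errfi1*, an inhibitor of the EGF receptor (0.995). *Osmr* was at 12.62 to 13.21 on arrays labelled Δ*socs3* and at 14.77 to 15.49 on arrays labelled WT, a gap of -2.16 in log2 (adjusted p = 0.0262 from limma), and *Slc46a2* differed by -2.22 (adjusted p = 0.0256), *Lacc1* by -1.46 (adjusted p = 0.0292) and *Errfi1* by -1.60 (adjusted p = 0.0266). *Pcbp2* differed by -0.68 and did not pass (adjusted p = 0.059).

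For *Fgf9*, 387 of 3221 genes lay above that correlation. The closest were *Castor1* (0.999), an arginine sensor of mTORC1 signaling, the orphan nuclear receptor gene *Nr4a1* (0.999), *Prxl2c* (0.997), *Nrbp2* (0.997) and *Arid5b* (0.997). *Nr4a1* differed by -2.88 (adjusted p = 0.0256), *Castor1* by -2.21 (adjusted p = 0.0253), *Nrbp2* by -1.86, *Prxl2c* by -1.44 and *Arid5b* by -1.11 (adjusted p = 0.0368), all past the test on arrays labelled Δ*socs3* against arrays labelled WT. The 2 sets of 5 genes shared no member.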
